A study of Saccharomyces cerevisiae with 12 samples.

Results

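The comparison described here is that of the *rad4Δrad23Δ* double mutant with the *rad4Δ* single mutant of budding yeast, that is, the loss of *RAD23* in cells that already lack *RAD4*. Its members are the 3 arrays labelled as the double mutant and the 3 labelled as *rad4Δ*, 6 of the 12 arrays of the series. The other 6 are 3 arrays of *rad23Δ* and 3 of wildtype. All strains are haploid and were grown untreated in rich medium (YPD) to log phase before total RNA was extracted from the whole culture and hybridised to Affymetrix yeast S98 arrays. The *rad4Δ* and *rad23Δ* strains and their wildtype parent (BY4742) are Euroscarf strains. The double mutant was made from the *rad23Δ* strain, in which *RAD4* was replaced with a *HIS3* marker fragment. It therefore does not descend from the *rad4Δ* strain it is set against here, so that the loss of *RAD23* and any other difference between these independently made strains cannot be told apart. No source used here names more than 1 isolate of a strain. The 3 arrays of a strain are described as biological repeats.

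Rad4 is the yeast counterpart of human XPC and recognises helix-distorting lesions in nucleotide excision repair. Rad23 binds Rad4 and protects it from degradation, and it also carries ubiquitinated proteins to the 26S proteasome through its ubiquitin-like and ubiquitin-associated domains, a task it shares with Dsk2 and Ddi1. The comparison asks which transcripts depend on Rad23 when the Rad4-Rad23 complex is already absent.

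The values are log2 values made by the authors with the robust multichip average (RMA), so a difference of 1 is a factor of 2 in signal. The array medians lay between 5.83 and 5.90. For the test, limma was run on the 12 arrays together, with a mean for each strain and Affymetrix controls left out, which gave 9275 probe sets. Those with a Benjamini-Hochberg adjusted p below 0.05, taken over all 9275, are referred to as called, whatever the fold. In the following, every adjusted p is of this kind, and every difference is double mutant minus *rad4Δ* unless another pair is named. Results are also given with the array *rad4Δ* replicate 2 left out, because its *RAD4* signal goes against its label. Because the RNA came from whole cultures, fewer cells with a transcript and less RNA per cell cannot be told apart. The file holds no detection calls, and differences that involve dim values may be understated.

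The deleted genes were read first. The *RAD23* (YEL037C) probe set stood at 3.66, 3.74 and 3.82 on the double mutant arrays (replicates 1 to 3), against 9.38, 9.58 and 9.82 on the *rad4Δ* arrays. The 2 groups were far apart, and the difference was -5.85 (standard error 0.16, adjusted p = 6.56e-10, and 3.38e-08 without *rad4Δ* replicate 2). The double mutant values were brighter than only 20.3% to 23.9% of the probe sets on their arrays. *RAD4* gave 2.99, 2.70 and 2.84 in the double mutant, against 3.49, 5.47 and 3.01 in *rad4Δ*. The array labelled *rad4Δ* replicate 2 was thus as bright for *RAD4* as the *rad23Δ* arrays, at 5.44, 5.12 and 5.14, and as wildtype replicates 1 and 2, at 5.11 and 5.12, whereas wildtype replicate 3 was at 3.42. *RAD4* was not called between the 2 strains compared (-1.15, standard error 0.55, adjusted p = 0.496).

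A second probe set, 3982_at, for which the annotation gives no gene, also set *rad4Δ* replicate 2 and wildtype replicate 3 apart from their strains. It stood at 12.20, 12.16 and 12.11 in the double mutant, against 12.15, 4.28 and 12.36 in *rad4Δ*. In *rad23Δ* it was at 12.06, 12.24 and 12.32, so that, unlike for *RAD4*, these arrays lay with the double mutant. On the wildtype arrays it was at 4.75, 4.63 and 12.18, so that *rad4Δ* replicate 2 was low with wildtype replicates 1 and 2, and wildtype replicate 3 was high with the other arrays. The labels of *rad4Δ* replicate 2 and wildtype replicate 3 are therefore in doubt, and both are kept as labelled. *HIS3*, the marker that replaced *RAD4* in the double mutant, was at 9.66, 9.56 and 9.60 there, against 9.10, 9.01 and 8.57 in *rad4Δ* (0.71, adjusted p = 0.0295, and 0.0439 without *rad4Δ* replicate 2). A second *HIS3* probe set differed by 0.47 and was not called (adjusted p = 0.365). The mating type matched the parent on all 6 arrays, with the alpha-factor gene *MF(ALPHA)1* between 11.92 and 12.16 and the a-cell receptor gene *STE2* between 3.07 and 3.53.

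**Figure D1:**
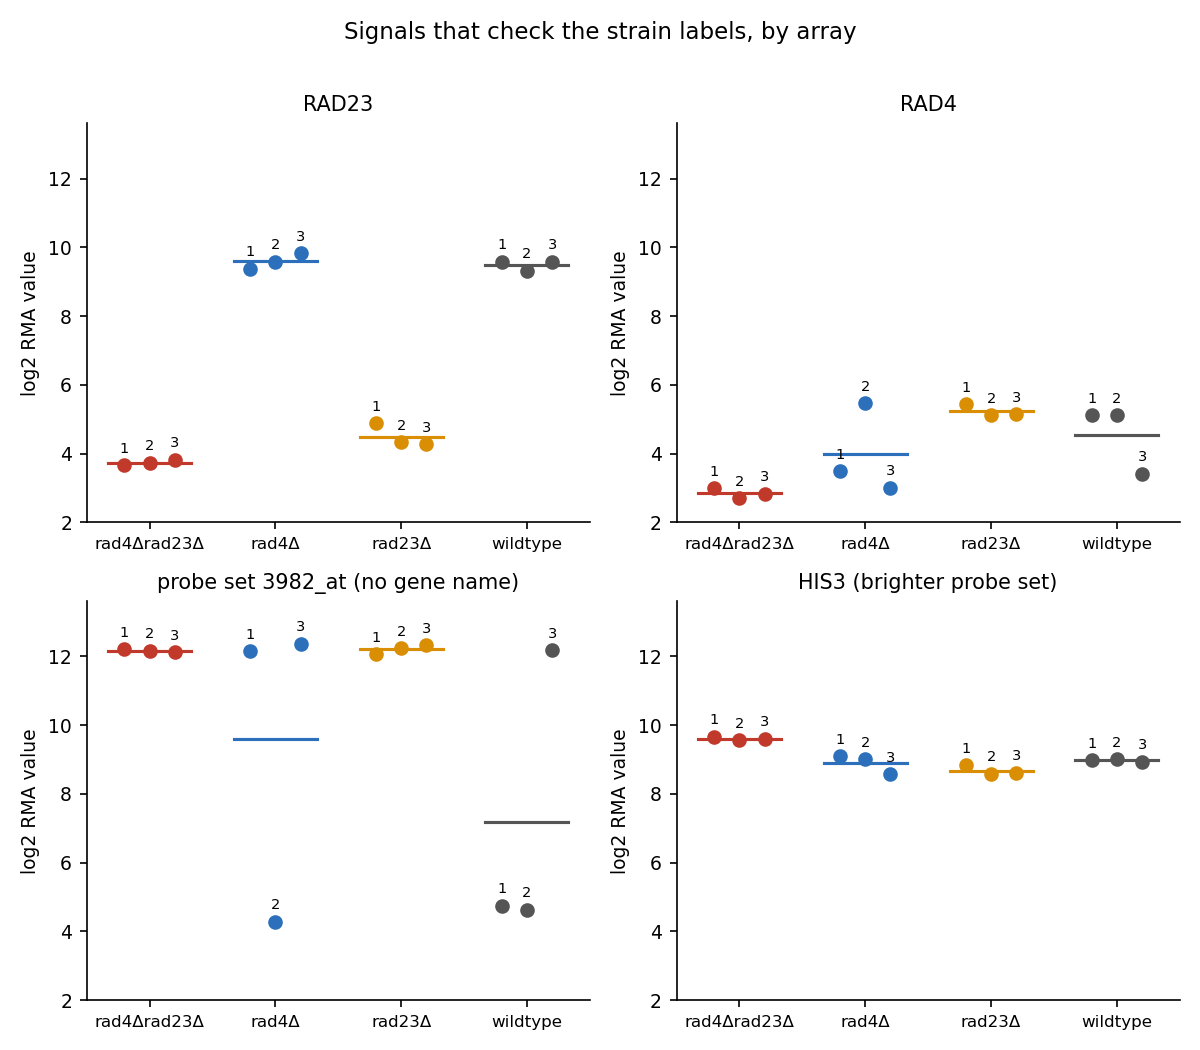
Log2 RMA signal (vertical axis) of *RAD23*, *RAD4*, the probe set 3982_at and *HIS3* on each of the 12 arrays, by strain, with the double mutant first. Numbers are replicates and bars are strain means. *RAD23* spanned 3.66 to 3.82 in the double mutant, and *rad4Δ* replicate 2 stood apart from the other *rad4Δ* arrays for *RAD4* (5.47) and 3982_at (4.28).

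Between the double mutant and *rad4Δ*, 71 of 9275 probe sets (0.765%) were called, 43 higher in the double mutant (0.464%) and 28 lower (0.302%). Before adjustment, 1004 (10.8%) had a p below 0.05, and all counts given below as before adjustment use that threshold. Of the 71, 58 had 1 gene name and stood for 57 genes, 35 of these probe sets higher and 23 lower (0.892% of the 6504 with 1 name). A further 4 had several names and 9 had none. The largest differences were among the falls. Of the lower calls, 7 were by 1 or more on the log2 scale and 6 by 2 or more, whereas 16 of the higher calls were by 1 or more and 1 by 2 or more. The median difference was 0.79 over the higher calls, -0.74 over the lower calls and -0.017 over all probe sets. On all 71 the 3 double mutant arrays lay beyond the 3 *rad4Δ* arrays, as they did on 17.2% of all probe sets.

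Without *rad4Δ* replicate 2, 63 probe sets were called (0.679%), 42 higher (0.453%) and 21 lower (0.226%), and 10.4% passed before adjustment. Of the 71, 51 remained called in the same direction, 30 higher and 21 lower, and 20 were not called. Among those 20 were *HUG1*, *TMA10*, *GPM2*, *GND2*, *XBP1* and *HSP82* of the rises and *IPI1*, *UTP23*, *RSA4* and *TEA1* of the falls. Another 12 probe sets were called only without this array, among them *HSP12*, *HXK1*, *MDJ1*, *STF1* and *COS8*. When wildtype replicate 3 was left out as well, 116 were called (1.25%), 56 of the 71 among them. With every other array kept, leaving out 1 double mutant array gave 27, 29 and 25 calls without replicates 1, 2 and 3. Of the 3 *rad4Δ* arrays, replicate 2 was nearest to the double mutant mean on 39 of the 71 called probe sets (54.9%) and on 40.2% of all probe sets.

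One double mutant array also stood apart. On 46 probe sets (0.496%) its replicate 2 was over 2 log2 units below both other double mutant arrays, which themselves lay within 1 of each other, while no other array did so on more than 4. None of the 46 was called. *RPN13*, which encodes a ubiquitin receptor of the proteasome, was one of them, at 9.47, 3.96 and 9.36. The glycolytic *FBA1* was another, at 12.69, 9.58 and 12.87.

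**Figure D2:**
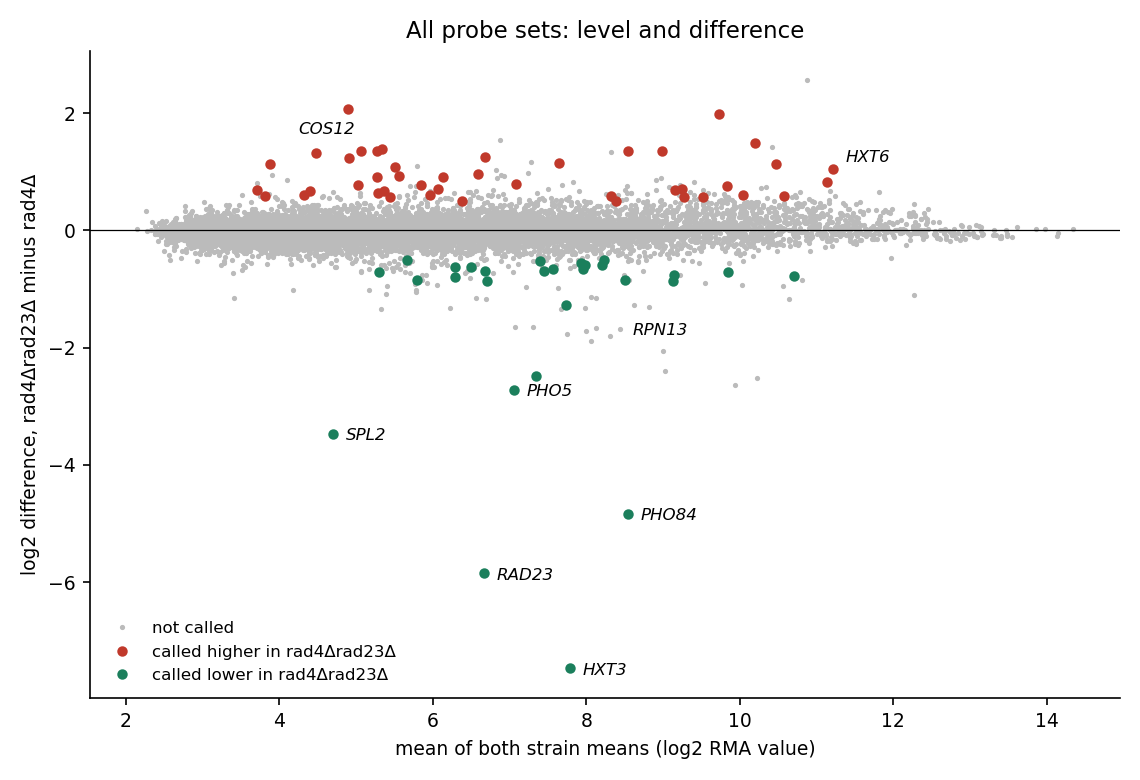
Difference between the double mutant and *rad4Δ* (vertical axis, log2) against the mean of the 2 strain means (horizontal axis, log2 RMA signal) for the 9275 probe sets. The 43 probe sets called higher are in red and the 28 called lower in green. *HXT3*, *RAD23* and *PHO84* lie far below the rest, and *RPN13*, with 1 double mutant array low, was not called.

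Beside *RAD23* itself, the largest fall measured was in *HXT3* (YDR345C), which encodes a low-affinity glucose transporter. *HXT3* stood at 4.21, 4.10 and 3.84 in the double mutant, against 11.47, 11.36 and 11.72 in *rad4Δ*. It was brighter than 97.5% to 98.3% of all probe sets on the *rad4Δ* arrays and than only 24.1% to 29.3% on the double mutant arrays. The difference was -7.47 (95% interval -7.76 to -7.17, adjusted p = 6.63e-12, and 2.64e-10 without *rad4Δ* replicate 2) on the scale of the deposited signal. The double mutant values of *HXT3* and *RAD23* are dim, so both differences may be understated, and they are not ranked against each other. The *rad23Δ* arrays were low as well, at 6.40, 6.13 and 6.16, against 11.48, 11.66 and 11.39 on the wildtype arrays.

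In the gene order of the reference annotation (RefSeq, assembly R64), *HXT6* and *HXT7*, which encode near-identical high-affinity glucose transporters, lie 2 and 3 genes from *HXT3*. Both rose. *HXT6* was at 11.70, 11.74 and 11.79 in the double mutant, against 10.74, 10.69 and 10.64 in *rad4Δ* (1.05, adjusted p = 0.00126, and 0.00508 without *rad4Δ* replicate 2). *HXT7* was at 11.50, 11.51 and 11.61, against 10.68, 10.81 and 10.67 (0.82, adjusted p = 0.00353, and 0.00704 without that array). The probe sets of this pair are of a kind designed for gene families and may share signal. On the other side of *HXT3*, *MRP1* (8.52 in the double mutant and 8.54 in *rad4Δ* in the mean, adjusted p = 0.967) and *PAL1* (7.10 and 7.15, adjusted p = 0.935) were not called. *SVF1*, between *HXT3* and *MRP1*, was dim in all strains, at means of 3.70 to 3.78, where a fall could not have been seen. The gene between *HXT3* and *HXT6*, YDR344C, had no value of its own.

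Of the 29 listed genes for hexose transport and glucose sensing, 22 were measured. *HXT6* and *HXT7* rose, *HXT3* fell, and the other 19 were not called. The median difference of the 22 was 0.08, against -0.01 over the 5656 genes with a probe set of their own, and before adjustment 6 passed a p of 0.05 higher and 1 lower. Over the 5656 genes, 35 were called higher and 22 lower, and 346 and 321 passed before adjustment. *HXK1*, a hexokinase gene repressed by glucose, was at 11.08, 11.11 and 11.14 in the double mutant, against 10.37, 10.76 and 10.26 in *rad4Δ*. The groups did not overlap, yet *HXK1* was called only without *rad4Δ* replicate 2 (0.65, adjusted p = 0.0806 with all arrays, and 0.0304 without it). *HXT4* differed by 0.56 (adjusted p = 0.101) and *HXT1*, another low-affinity transporter gene, by -0.43 (adjusted p = 0.507).

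Several genes of the phosphate regulon fell in the double mutant. The regulon's genes are switched on by the transcription factor Pho4 when phosphate is scarce and encode transporters, secreted phosphatases and the polyphosphate machinery of the vacuole. Of 18 listed genes, 16 were measured, of which 6 fell, none rose and 10 were not called, 3 of the 16 with a difference above 0. Their median difference was -0.52, and before adjustment 9 were lower and 1 higher. Without *rad4Δ* replicate 2 the count of falls was also 6, and without both arrays in doubt it was 7. These genes also varied among the *rad4Δ* arrays, where replicate 2 was the lowest for each of the called members, whereas the double mutant arrays lay close together.

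*PHO84* (YML123C), which encodes the high-affinity phosphate transporter, was at 6.05, 6.20 and 6.15 in the double mutant, against 11.06, 10.39 and 11.46 in *rad4Δ*. The difference was -4.84 (95% interval -5.42 to -4.25, adjusted p = 1.32e-06, and 1.23e-06 without *rad4Δ* replicate 2), or 28.6-fold lower. It was far larger than the spread within *rad4Δ*. The *rad23Δ* arrays were at 10.31, 10.54 and 10.65, against 10.26, 10.17 and 11.10 on the wildtype arrays, so that *PHO84* was low in the double mutant and in none of the other strains. Its measured neighbours *TUB3* (-0.22, adjusted p = 0.408) and *GTR1* (-0.06, adjusted p = 0.9) were not called.

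*SPL2*, whose product dampens low-affinity phosphate uptake, was at 3.16, 3.01 and 2.74 in the double mutant, against 7.11, 5.75 and 6.46 in *rad4Δ* (-3.47, standard error 0.41, adjusted p = 0.00153). The secreted acid phosphatase gene *PHO5* was at 5.57, 5.81 and 5.70, against 8.52, 7.56 and 9.17 in *rad4Δ* (-2.72, standard error 0.38, adjusted p = 0.00585). Thus *SPL2* and *PHO5* were also lower on every double mutant array than on any *rad4Δ* array. The probe set shared by the acid phosphatase genes *PHO11* and *PHO12* stood at 5.92, 6.28 and 6.08, against 8.79, 7.68 and 9.29 in *rad4Δ* (-2.49, adjusted p = 0.00786). Leaving out *rad4Δ* replicate 2 gave adjusted p-values between 0.00119 and 0.00143 for *SPL2*, *PHO5* and the *PHO11*/*PHO12* probe set.

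The vacuolar transporter chaperone complex, which makes polyphosphate, changed less but in the same direction. *VTC3* was at 7.18, 7.06 and 7.05 in the double mutant, against 8.71, 7.72 and 8.67 in *rad4Δ* (-1.27, adjusted p = 0.0308, and 0.00119 without *rad4Δ* replicate 2). *VTC1* was at 10.29, 10.32 and 10.33, against 11.32, 10.93 and 11.04 (-0.78, adjusted p = 0.0141, and 0.0195 without that array). *VTC4*, the catalytic subunit, fell on both of its probe sets, by 0.86 (adjusted p = 0.0112) and by 0.84 (adjusted p = 0.00786). Other measured members did not pass the test. They included *PHO81*, which encodes the inhibitor of the Pho80-Pho85 kinase (-0.65, adjusted p = 0.0832), *PHM6* (-1.02, adjusted p = 0.191) and the vacuolar phosphatase gene *PHO8* (-0.39, adjusted p = 0.148).

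The genes that control the regulon were not called. Of 11 listed genes for phosphate signalling and low-affinity transport, none passed the test by limma, with 1 higher and 1 lower before adjustment and a median of -0.07. With 35 higher and 22 lower calls over the 5656 genes, a list of 11 would seldom hold a call. *PHO4* differed by -0.16, the kinase gene *PHO85* by 0.13 and its cyclin gene *PHO80* by -0.07, and the low-affinity transporter gene *PHO90* by -0.40 (adjusted p = 0.26).

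**Figure D3:**
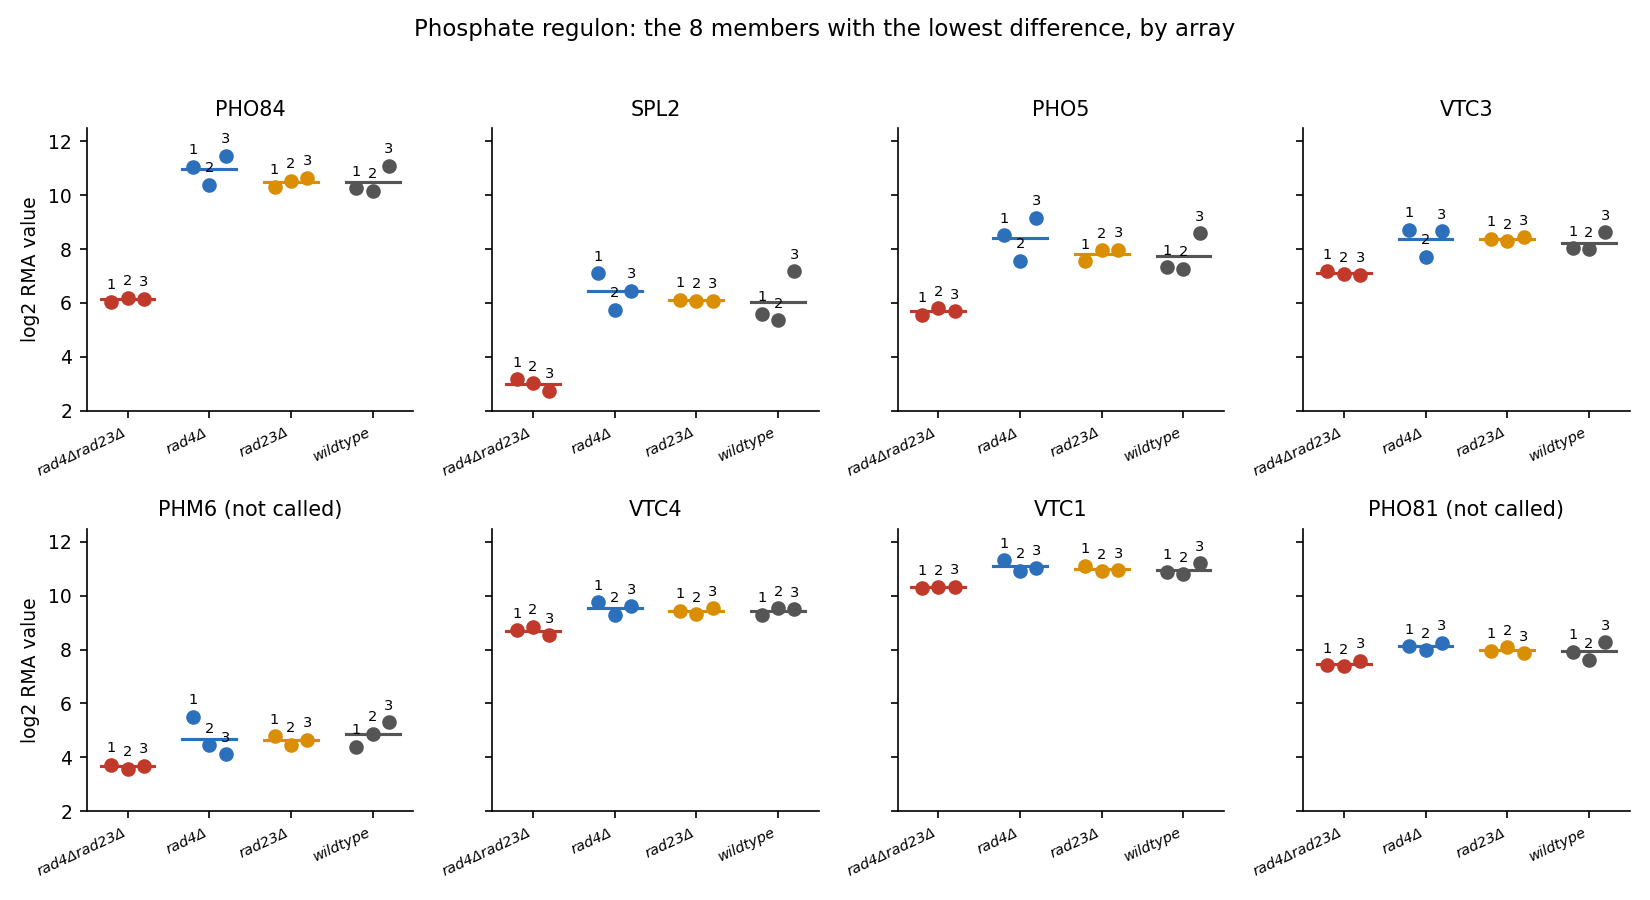
Log2 RMA signal (vertical axis) of 8 genes of the phosphate regulon on each of the 12 arrays, by strain, with the double mutant first. Numbers are replicates and bars are strain means. The double mutant arrays lie lowest for *PHO84* (6.05 to 6.20), *SPL2* (2.74 to 3.16) and *PHO5* (5.57 to 5.81), and *PHM6* and *PHO81* did not pass the test.

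Among the rises, genes of the general stress response stood out by number. They are activated by the transcription factors Msn2 and Msn4 under many stresses and when glucose runs low. Of 52 listed genes, all measured, 9 rose (*TMA10*, *NQM1*, *YMR196W*, *GRE1*, *GND2*, *ALD4*, *ALD3*, *XBP1* and *PRX1*) and none fell. The median difference was 0.41, and before adjustment 28 were higher and none lower. On 29 of the 52 all double mutant arrays were above all *rad4Δ* arrays, as on 7.73% of all probe sets and for 477 of the 5656 genes. Without *rad4Δ* replicate 2 there were 8 rises, and without both arrays in doubt 13.

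*NQM1*, which encodes a transaldolase, was at 5.49, 5.58 and 5.49 in the double mutant, against 4.19, 4.44 and 4.23 in *rad4Δ* (1.23, adjusted p = 2.62e-04, and 6.26e-04 without *rad4Δ* replicate 2). *GRE1*, a gene for a hydrophilin, was at 4.49, 4.38 and 4.46, against 3.13, 3.49 and 3.33 (1.13, adjusted p = 7.98e-04, and 0.00126 without that array). Both rose by more than the spread of either strain. *YMR196W*, a gene of unknown function, was at 8.16, 8.29 and 8.22, against 6.65, 7.53 and 7.03 (1.15, adjusted p = 0.0141, and 0.00155). *TMA10*, which encodes a ribosome-associated protein, was at 7.29, 7.27 and 7.38, against 6.49, 5.74 and 5.96 (1.25, adjusted p = 0.0445), and was not called without *rad4Δ* replicate 2 (adjusted p = 0.124).

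Several other stress genes with large differences were scattered on the *rad4Δ* arrays and did not pass the test. *HSP12*, a gene for a membrane-stabilising heat shock protein, was at 11.09, 11.18 and 11.12 in the double mutant, against 9.25, 10.86 and 9.01 in *rad4Δ*. The double mutant arrays were all above, but *rad4Δ* replicate 2 was much nearer to them than the other *rad4Δ* arrays. The difference was 1.42 (adjusted p = 0.226) with that array and 2.00 (adjusted p = 0.0301) without it. *DDR2* differed by 1.34 (adjusted p = 0.136) and the glycogen phosphorylase gene *GPH1* by 1.17 (adjusted p = 0.0918). The catalase gene *CTT1*, also on this list, differed by -0.08.

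Genes for heat shock proteins and chaperones were read as a separate list. Of 34 listed genes 31 were measured, of which 2 rose and none fell, with a median of 0.22 and 9 higher and none lower before adjustment. *CUR1*, which encodes a sorting factor for misfolded proteins, was at 6.03, 5.94 and 5.88 in the double mutant, against 4.90, 4.20 and 4.71 in *rad4Δ* (1.35, adjusted p = 0.00973, and 0.0296 without *rad4Δ* replicate 2). The Hsp90 gene *HSP82* was at 10.86, 10.83 and 10.92, against 10.02, 10.36 and 10.50 (0.58, adjusted p = 0.0473), and was not called without that array (adjusted p = 0.0815), whereas *MDJ1*, for a mitochondrial Hsp40, then was (0.66, adjusted p = 0.0296).

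This list changed without both arrays in doubt, where 3 genes were called higher (*CUR1*, *MDJ1* and *HSP26*) and 1 lower. The lower one was *HSP30*, for a stress-induced plasma membrane protein, at 8.85, 8.74 and 8.92 in the double mutant, against 10.55, 7.62 and 10.63 in *rad4Δ*. The double mutant arrays lay between *rad4Δ* replicate 2 and the other *rad4Δ* arrays, and *HSP30* was also at 7.62 and 7.35 on wildtype replicates 1 and 2 and at 10.57 on replicate 3. Its difference was -0.76 (adjusted p = 0.819) with all arrays, -1.75 (adjusted p = 0.402) without *rad4Δ* replicate 2, and -1.75 (adjusted p = 3.26e-05, and 3.63e-07 for the interaction) without both. Of 20 genes for trehalose and glycogen, 1 rose, *PIG1*, for a putative targeting subunit of the Glc7 phosphatase (0.61, adjusted p = 0.0352), and its call was lost without *rad4Δ* replicate 2 (adjusted p = 0.0556). Without both arrays in doubt, 2 of the 20 were called higher (*PIG1* and *ATH1*) and 1 lower (*GLG1*).

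Other rises were scattered over carbon metabolism and the cell wall. *ADR1*, which encodes an activator of glucose-repressed genes, was at 5.65, 5.67 and 5.86 in the double mutant, against 4.83, 4.87 and 4.74 in *rad4Δ* (0.91, adjusted p = 6.23e-04, and 0.00155 without *rad4Δ* replicate 2). It was the 1 call among 17 genes for gluconeogenesis and the glyoxylate cycle. *GPM2*, a paralogue of phosphoglycerate mutase (0.92, adjusted p = 0.0445), and *BDH2*, a putative butanediol dehydrogenase gene (0.78, adjusted p = 0.0141), rose too, but *GPM2* was not called without *rad4Δ* replicate 2 (adjusted p = 0.0705). *GPG1*, a gene tied to the glucose-sensing G protein Gpa2, was at 7.13, 6.99 and 7.09, against 6.0, 6.59 and 5.73 (0.96, adjusted p = 0.0445, and 0.00436 without that array).

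Of 56 genes for cell wall proteins and the integrity pathway, 2 rose and none fell, with a median of -0.02 and 7 higher and 4 lower before adjustment. *PIR3*, for a covalently bound wall protein, was at 6.10, 6.08 and 5.97 in the double mutant, against 5.14, 4.95 and 4.83 in *rad4Δ* (1.08, adjusted p = 6.80e-04, and 0.00273 without *rad4Δ* replicate 2). *ROM1*, for an exchange factor of the GTPase Rho1, was at 6.60, 6.60 and 6.56, against 5.74, 5.86 and 5.42 (0.91, adjusted p = 0.00353, and 0.00273). *YGP1*, which encodes a secreted glycoprotein, was at 11.12, 10.97 and 11.03, against 9.88, 10.37 and 9.47 (1.13, adjusted p = 0.0371, and 0.0129).

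**Figure D4:**
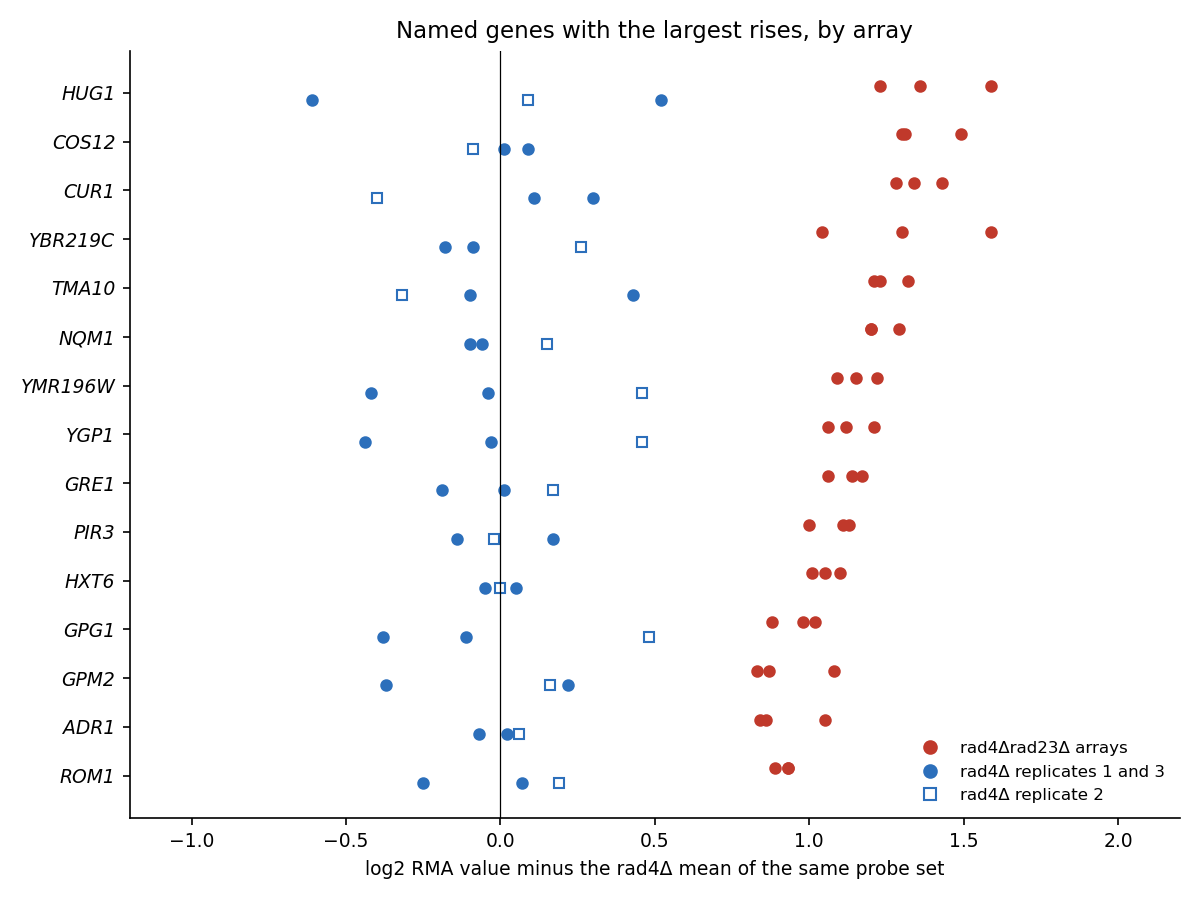
Signal of the 15 genes named for the largest rises on the 3 double mutant and the 3 *rad4Δ* arrays, as the log2 difference from the *rad4Δ* mean of the same gene (horizontal axis). The open square is *rad4Δ* replicate 2. All double mutant arrays lie above all *rad4Δ* arrays for each of the 15, from *HUG1* (1.39) to *ROM1* (0.91).

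The damage-inducible genes for deoxynucleotide synthesis were read as a list of their own, because the study concerns dNTP pools. In this pathway the repressor Crt1 holds down the ribonucleotide reductase genes until the checkpoint kinases Mec1, Rad53 and Dun1 relieve it. Of 16 listed genes, 1 rose and none fell, with a median of 0.16 and 4 higher and 1 lower before adjustment. The riser was *HUG1*, which encodes a small inhibitor of ribonucleotide reductase. It was at 6.24, 5.88 and 6.01 in the double mutant, against 5.17, 4.74 and 4.04 in *rad4Δ* (1.39, 95% interval 0.86 to 1.92, adjusted p = 0.0219). Without *rad4Δ* replicate 2 its adjusted p was 0.053, and no member of this list was called.

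The reductase genes themselves did not pass the test. *RNR3*, the damage-inducible large subunit, was at 6.16, 5.94 and 5.98 in the double mutant, against 5.60, 5.68 and 5.12 in *rad4Δ* (0.56, 95% interval 0.16 to 0.96, adjusted p = 0.247). *RNR2* differed by 0.44 (95% interval 0.16 to 0.72, adjusted p = 0.181). For the other subunits the intervals included 0, at 0.22 for *RNR1* (-0.31 to 0.76) and 0.16 for *RNR4* (-0.08 to 0.40). The kinase gene *DUN1* differed by 0.31 (adjusted p = 0.357). Among 30 genes of the DNA damage checkpoint and recombination, none was called by limma, and 3 were higher and none lower before adjustment, with a median of 0.02 and *RAD53* at -0.04 (95% interval -0.33 to 0.25).

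Most genes for making ribosomes had differences slightly below 0, and few passed the test. Of 129 genes of ribosome biogenesis, 118 had a difference below 0 and the median was -0.25. Before adjustment 45 were lower and none higher. On 53 all double mutant arrays were below all *rad4Δ* arrays, as on 9.46% of all probe sets and for 586 of the 5656 genes. After adjustment 4 fell. *NOG2*, for a GTPase that matures the large subunit, was at 8.85, 8.77 and 8.66 in the double mutant, against 9.61, 9.48 and 9.49 in *rad4Δ* (-0.77, adjusted p = 0.00559, and 0.016 without *rad4Δ* replicate 2). *TOD6* was at 6.33, 6.13 and 6.38, against 7.16, 7.05 and 7.21 (-0.86, adjusted p = 0.0104, and 0.0265), but its product is a repressor of ribosome biogenesis genes. *IPI1* (-0.63, adjusted p = 0.0344) and *UTP23* (-0.50, adjusted p = 0.0376), for factors of rRNA processing, were not called without that array (adjusted p = 0.0654 and 0.083), nor was *UTP23* once replicates were blocked by number (adjusted p = 0.0534).

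Without *rad4Δ* replicate 2 the median of the ribosome biogenesis list was -0.31, with 2 calls. 2 further genes of this kind outside the list fell, the rRNA helicase gene *DHR2* (7.03, 7.15 and 7.12 in the double mutant, against 7.62, 7.65 and 8.12 in *rad4Δ*, adjusted p = 0.0321) and *RSA4* (-0.53, adjusted p = 0.0283), for a factor of large subunit assembly. The 81 cytosolic ribosomal protein genes differed from this, with a median of -0.02, no call by limma, and none higher and 1 lower before adjustment. For 28 subunits of RNA polymerases I and III the median was -0.14, with no call and 5 lower and none higher before adjustment.

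Of 30 genes for nucleotide synthesis and uptake, 2 fell, both of the pyrimidine branch, with a median of -0.23 and 10 lower and none higher before adjustment. Of the 10, *BAS1* rested on double mutant replicate 2, at 5.98, 3.69 and 6.09 in the double mutant, against 6.35, 6.0 and 6.57 in *rad4Δ*. *URA6*, the uridylate kinase gene, was at 9.49, 9.51 and 9.49 in the double mutant, against 10.19, 10.39 and 10.03 in *rad4Δ* (-0.71, adjusted p = 0.00684, and 0.0208 without *rad4Δ* replicate 2). The uridine permease gene *FUI1* was at 7.61, 7.65 and 7.67, against 8.11, 8.16 and 8.35 (-0.56, adjusted p = 0.0144, and 0.0354).

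The remaining named falls belonged to no shared group. *PRM7*, a pheromone-regulated gene, was at 4.96, 5.04 and 4.86 in the double mutant, against 5.65, 5.80 and 5.54 in *rad4Δ* (-0.71, adjusted p = 0.00766, and 0.0296 without *rad4Δ* replicate 2), and was the 1 call among 27 pheromone-induced genes. *ALD5*, for a mitochondrial aldehyde dehydrogenase, was at 7.50, 7.71 and 7.69, against 8.31, 8.05 and 8.52 (-0.66, adjusted p = 0.0301, and 0.0107). By contrast the aldehyde dehydrogenase genes *ALD3* and *ALD4* rose, by 0.67 (adjusted p = 0.0104) and 0.68 (adjusted p = 0.00523). *YGR079W* fell by 0.66 (adjusted p = 0.0371), a call that was lost both without that array (adjusted p = 0.106) and once replicates were blocked by number (adjusted p = 0.0506).

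Probe sets from repeated parts of the genome near chromosome ends were also among the rises. One that the annotation gives to *YRF1-3*, *YRF1-6*, *YRF1-7* and YPR202W, of the helicases coded in telomeric Y' elements, was at 6.09, 5.76 and 5.95 in the double mutant, against 3.90, 4.0 and 3.72 in *rad4Δ*. It was the rise with the largest difference (2.06, adjusted p = 1.36e-04, and 6.26e-04 without *rad4Δ* replicate 2), and its signal cannot be given to 1 gene. *COS12*, of a subtelomeric family of membrane proteins, was at 5.69, 5.68 and 5.87, against 4.39, 4.29 and 4.47 (1.36, adjusted p = 1.94e-04, and 0.00119), the 1 call among 7 genes of that family (median 0.50). *YBR219C*, a gene of unknown function, rose as well and was at 5.42, 5.13 and 4.87, against 3.65, 4.09 and 3.74 (1.31, adjusted p = 0.0216, and 0.0301).

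A run of 4 probe sets without a gene name, 3951_at, 3952_at, 3953_at and 3954_at, rose together, by 1.35, 1.36, 1.99 and 1.49. Of these 3953_at was at 10.75, 10.74 and 10.69 in the double mutant, against 8.72, 9.29 and 8.19 in *rad4Δ* (adjusted p = 0.00153, and 5.15e-04 without *rad4Δ* replicate 2). What they measure is not given in the sources used here, and they are not counted as separate genes.

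In the lists for pathways in which Rad23 itself works, read by the brightest probe set per gene, the only call was *RAD23*. Over the 5656 genes 35 were called higher and 22 lower, so lists of this size would hold few calls at that share. Of 14 genes for damage recognition in excision repair, *RAD23* was called and the other 13 were not, and the median was 0.06. *RAD34*, the *RAD4* paralogue, was at 3.27, 3.03 and 3.28 in the double mutant, against 3.52, 3.47 and 3.50 in *rad4Δ* (-0.30, adjusted p = 0.356). Of 14 core excision repair factors none was called by limma or passed an unadjusted p of 0.05, with differences between -0.23 (*TFB4*) and 0.25 (*TFB5*). The genes beside the *RAD23* deletion, *UTR4* (-0.25, adjusted p = 0.407) and *ANP1* (-0.05, adjusted p = 0.937), were not called, nor were *SPT2* (0.23, adjusted p = 0.613) and *GCG1* (0.28, adjusted p = 0.432) beside *RAD4*.

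None of 33 genes for 26S proteasome subunits was called by limma, with a median of 0.11 and 4 higher and none lower before adjustment. Of the 33 differences, 27 were above 0 and 5 below, against 2705 and 2936 over the 5656 genes. None of 16 genes for ubiquitin shuttles and partners of Rad23 was called either (median 0.08, 2 higher and none lower before adjustment). The 2 came near the threshold. The polyubiquitin gene *UBI4* was at 8.12, 8.10 and 7.99 in the double mutant, against 7.47, 7.21 and 7.18 in *rad4Δ* (0.78, 95% interval 0.43 to 1.14, adjusted p = 0.0508), and *RPN4*, for the activator of proteasome genes, at 8.87, 8.83 and 8.99, against 8.18, 8.04 and 8.55 (0.64, 95% interval 0.34 to 0.94, adjusted p = 0.059). Without *rad4Δ* replicate 2 the adjusted p was 0.124 for *UBI4* and 0.139 for *RPN4*. With each gene taken as the mean of its probe sets, 2 genes of this list were called higher. For the other shuttle genes the intervals included 0, at -0.01 for *DSK2* (-0.23 to 0.20) and 0.11 for *DDI1* (-0.11 to 0.33). Respiratory chain and citric acid cycle genes (57 measured, median 0.22) had no call by limma and 16 higher and none lower before adjustment. Most lay slightly higher, with 53 of the 57 differences above 0 and 3 below. On 21 of them all double mutant arrays were above all *rad4Δ* arrays, as for 477 of the 5656 genes. By the mean of each gene's probe sets, 2 of the 57 were called higher.

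The other lists held 1 call or none by limma. *IZH1*, a gene tied to zinc homeostasis, fell (-0.59, adjusted p = 0.0117, and 0.0439 without *rad4Δ* replicate 2) and was the 1 call among 35 iron, copper and zinc genes (median -0.04), of which 2 were called higher and 2 lower without both arrays in doubt. None was called among 15 genes for arginine (median -0.13, 1 higher and 4 lower before adjustment), 59 for other amino acids (-0.06, 2 higher and 5 lower), 31 for sulfur assimilation and methionine (-0.17, none higher and 2 lower) or 28 for glycolysis and ethanol (-0.01, 3 higher and none lower). The same held for 26 genes of ergosterol synthesis (1 higher and none lower), 29 of protein folding in the endoplasmic reticulum (none in either direction) and 41 cell cycle and histone genes (3 higher and 2 lower). Among the genes that check the strains, 4 alpha-specific genes (none higher and 1 lower) and 7 a-specific genes (1 higher and none lower) held no call, and of 7 marker genes *HIS3* was called. By the mean of each gene's probe sets, 1 arginine gene was called lower and 2 genes for glycolysis and ethanol were called higher.

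The loss of *RAD23* can be read a second time in cells that keep *RAD4*, as *rad23Δ* minus wildtype. This comparison shares no array with the main one, but the double mutant was made from the *rad23Δ* strain. Any other change carried by that strain would enter both comparisons and cannot be told apart from the loss of *RAD23*. In *rad23Δ* minus wildtype there were 26 calls (0.28%), 13 higher (0.14%) and 13 lower (0.14%), with 7.15% of probe sets past an unadjusted p of 0.05. Of the 71 probe sets called in cells without *RAD4*, 37 had the same sign there (52.1%, against 51.3% of all probe sets), and 7 were called in both with the same sign, which is 9.86% of the 71 and 26.9% of the 26. These were *RAD23*, *HXT3*, *HXT6*, *HXT7*, *COS12*, *YBR219C* and the *YRF1* probe set. None was called in opposite directions. In cells with *RAD4* the loss of *RAD23* went with 1.09 for *HXT6* (adjusted p = 0.00156), 0.65 for *HXT7* (adjusted p = 0.0298) and 1.73 for the *YRF1* probe set. Across all probe sets the 2 sets of differences had a Pearson correlation of 0.181, 0.068 without *RAD23* and *HXT3*, and -0.164 when the array with a label in doubt in each comparison was left out as well, so its sign depends on these arrays.

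With all arrays kept, the phosphate and general stress genes were not among the calls in cells with *RAD4*. In *rad23Δ* minus wildtype the median of the phosphate regulon was 0.05 with no call by limma, that of the Msn2 and Msn4 genes -0.06, and that of ribosome biogenesis 0.15. These medians include wildtype replicate 3, whose label is in doubt, and were not taken without it. *HSP12*, for example, was at 8.46, 8.60 and 8.41 in *rad23Δ*, against 10.65, 10.69 and 9.20 on the wildtype arrays (adjusted p = 0.252). Whether the loss of *RAD23* differed between the 2 backgrounds was tested as the interaction, (double mutant minus *rad4Δ*) minus (*rad23Δ* minus wildtype). Any other change particular to a strain, such as the double mutant, enters it too and cannot be told apart from a dependence on *RAD4*. The interaction was called for 8 probe sets (0.0863%), 5 higher (0.0539%) and 3 lower (0.0323%), each of them among the 71. Before adjustment 827 passed a p of 0.05 (8.92%). Without *rad4Δ* replicate 2 there were 24 (0.259%), and without both arrays in doubt 110 (1.19%).

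*PHO84* had the largest interaction, at -4.83 (standard error 0.38, adjusted p = 2.16e-04), since *rad23Δ* and wildtype differed by only -0.01. *HXT3* fell in both backgrounds, by 7.47 without *RAD4* and by 5.28 with it, and the interaction was -2.19 (standard error 0.19, adjusted p = 3.52e-04). As the lower values of *HXT3* are dim, this difference may be understated. The interaction was above 0 for *NQM1* (1.47), *PIR3* (1.21) and *GRE1* (1.18), none of which was called in cells with *RAD4*, and below 0 for *URA6* (-0.99), which differed there by 0.29 (adjusted p = 0.526). The interactions of *SPL2* (adjusted p = 0.0516) and *PHO5* (adjusted p = 0.089) did not pass the test with all arrays.

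**Figure D5:**
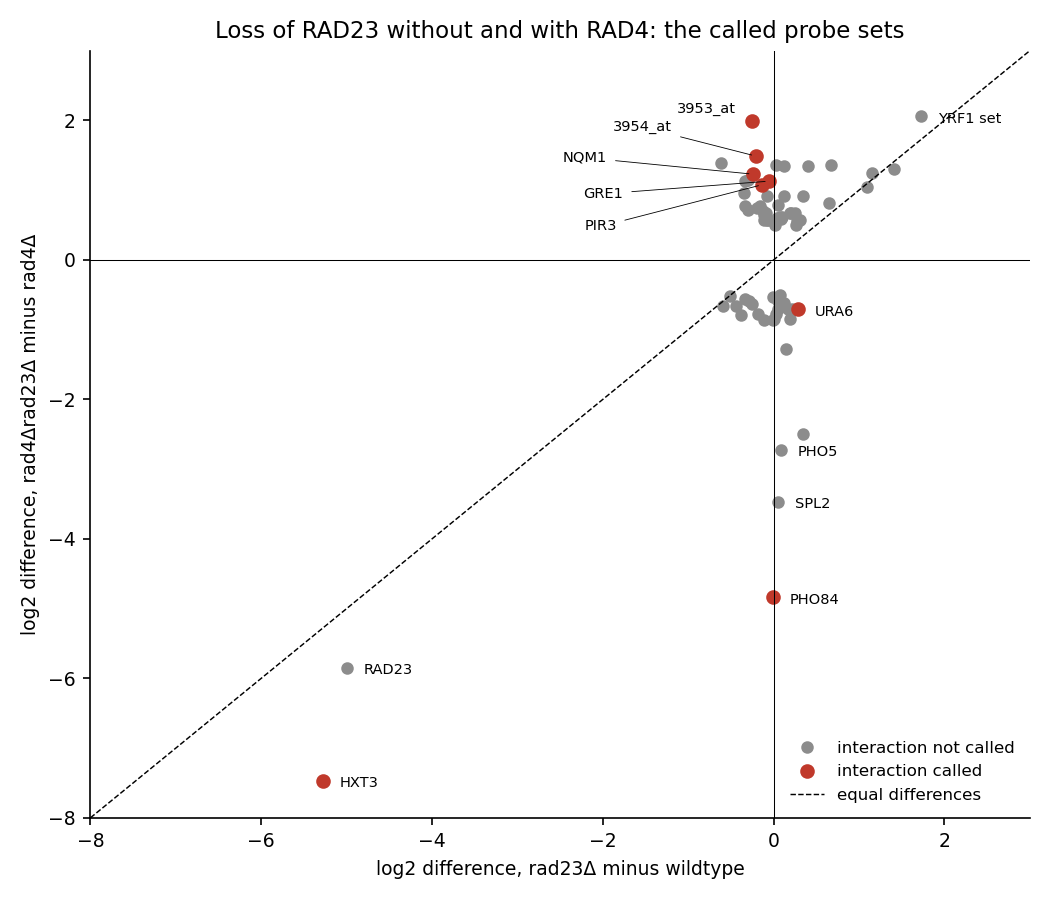
For the 71 probe sets called between the double mutant and *rad4Δ*, the difference in cells without *RAD4* (vertical axis, double mutant minus *rad4Δ*, log2) against that in cells with *RAD4* (horizontal axis, *rad23Δ* minus wildtype, log2). The dashed line marks equal differences, and the 8 probe sets with an interaction past the threshold are in red. *RAD23* and *HXT3* are low on both axes, whereas *PHO84* is at -4.84 on the vertical and -0.01 on the horizontal axis.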

How the data were processed

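The authors deposited RMA values on the log2 scale, to 2 decimals. Per the labels, arrays were scanned with Microarray Suite 5.0 and summarised with affy 1.5.8 (Bioconductor 1.5, R 2.0.1). No filter or genome build is given in the sources used here, and no normalization was added. Of 9335 probe sets, 60 controls were left out. Of the 9275 tested, 6504 had 1 gene name, 328 several and 2443 none, for 5656 genes, and a gene was represented in the lists by its brightest probe set over all arrays. limma 3.58.1 (R 4.3.3) was fitted to 12 arrays with 1 mean per strain (residual degrees of freedom 8, prior 4.03), and its method was tested on simulated data. Intervals are 95%. With 3 arrays per strain, which limits precision, an exact permutation test cannot go below 0.1, so none was used.

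The comparison, the 32 lists and the tests were chosen with earlier results of these data known. Named are up to 15 single-name genes per direction with the largest called differences and no overlap of arrays, *RAD4*, *RAD23*, *HIS3* and list examples, and any other gene was chosen after its values were seen. The deviations of same-numbered *rad4Δrad23Δ* and *rad4Δ* arrays from their strain means correlated by 0.124 to 0.273, so replicate number was also fitted as a block, where *YGR079W*, *HAB1*, *TEA1*, *UTP23* and 2 probe sets without a gene name were not called. The alternatives were scaling, dim probe sets, which arrays were fitted, how the variance was modelled, weighting of arrays, the block, a fold minimum and leaving out arrays. Promoters were not searched.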

Additional observations from a re-analysis of the deposited data

Results flagged for a closer look

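For 8 probe sets double mutant minus *rad4Δ* differed from *rad23Δ* minus wildtype by limma's interaction test. Any other change particular to a strain enters this test too and cannot be told apart from a dependence on *RAD4*. Each of the 8 is listed by its interaction. It was -4.83 for *PHO84* (adjusted p = 2.16e-04), -2.19 for *HXT3* (adjusted p = 3.52e-04) and -0.99 for *URA6* (adjusted p = 0.0226). Above 0 it was 1.47 for *NQM1* (adjusted p = 0.00332), 1.21 for *PIR3* (adjusted p = 0.0134) and 1.18 for *GRE1* (adjusted p = 0.0226). Among probe sets without a gene name it was 2.25 for 3953_at (adjusted p = 0.0226) and 1.70 for 3954_at (adjusted p = 0.0134). Each of the 8 was also called without *rad4Δ* replicate 2, with adjusted p-values of 8.31e-05 for *PHO84*, 0.00101 for *HXT3*, 0.019 for *URA6*, 0.00309 for *NQM1*, 0.0185 for *PIR3*, 0.0139 for *GRE1* and 0.00309 for 3953_at and 3954_at.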

How the results depend on the processing

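The count of 71 moved with the weighting and the choice of arrays. It was 20 with only the 6 arrays compared and 19 with these and the replicate block (an alternative chosen after seeing the data). It was 344 with array weights (weights between 0.277 and 3.27) and 116 without *rad4Δ* replicate 2 and wildtype replicate 3. The *rad4Δ* arrays had weights of 0.414, 1.73 and 0.277 for replicates 1 to 3. Weighted counts therefore lean on replicate 2, whose label is in doubt. Leaving out 1 of the 6 arrays gave 25 to 68, namely 27, 29 and 25 without double mutant replicates 1, 2 and 3, and 68, 63 and 68 without *rad4Δ* replicates 1, 2 and 3. For *rad23Δ* minus wildtype the count of 26 became 842 with array weights and 61 without both arrays in doubt. It was 16 to 25 with 1 double mutant or *rad4Δ* array left out, which changes only the shared estimate of the spread. No *rad23Δ* or wildtype array was left out alone. For the interaction the count of 8 became 13 with centred arrays, 14 with quantile normalization, 332 with array weights and 16 with the replicate block. It was 110 without both arrays in doubt and 3 to 24 with 1 double mutant or *rad4Δ* array left out. With the block the main comparison had 86 calls, 61 higher and 25 lower, 65 of the 71 among them, and *HAB1* had an adjusted p of 0.056, *TEA1* of 0.0571, *UTP23* of 0.0534, and the probe sets 7513_f_at and 8752_f_at of 0.0516. Beside these and *YGR079W*, the block changed no other call of the 71. Of the 71, 22 passed with each of the 6 arrays left out in turn, 14 passed under every alternative run, and none changed sign. Among genes that were not called, *RPN10* became -0.05 without *rad4Δ* replicate 3, and without double mutant replicate 2 *RPN13* became 0.13 (lowest -2.62 with another array left out), *RAD5* 0.18 (-0.9), *RPL38* 0.02 (-1.45) and *SEC63* 0.08 (-0.56), and *HSP30* 0.39 and *SEC63* 0.14 with array weights. *HSP30* was -1.75 and called without both arrays in doubt. The causes were not tested.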
